A study of Mus musculus with 4 samples.

Results

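The circadian clock genes Nr1d1, Nr1d2, Per1, Per2, Per3, Arntl and Npas2 and the PAR bZIP output genes Dbp, Tef and Hlf were followed in sorted lung endothelial cells of mice. These 10 genes, of 17915 in the deposited table, were picked on a measured difference: within each colour their level differed between the library titled biological replicate 1 and the one titled replicate 2. That replicate difference is therefore described here and not tested, and the test concerns colour. The choice did not use the colour difference, but the replicate difference it used widens the spread of the colour test. All 10 were in the table, and all 10 were among the 13177 genes that passed the filter on low counts. Hlf passed through its replicate 2 libraries, because both of its replicate 1 libraries held fewer than 10 counts.

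Every mouse had 3 alleles. Cdh5-CreER makes Cre in endothelial cells, active once tamoxifen is given, aSMA-LSL-Dre puts the recombinase Dre under control of the gene for alpha smooth muscle actin (Acta2), and NR1 carries the colours. All received tamoxifen 5 times and transverse aortic constriction, a narrowing of the aorta, and were studied at 6 weeks. Constriction was used as a model of pulmonary fibrosis, and all 4 libraries share every allele and treatment. Endothelial cells carried ZsGreen, and those in which the actin gene had been switched on, even briefly, carried tdTomato. Bulk RNA sequencing of tdTomato+ cells (n = 2) and ZsGreen+ cells (n = 2) asked how gene expression differed between them. The labels give no age, sex, animal number or hour of collection, and whether equal replicate numbers mark the same mice is not stated, so p-values measure only the spread between these libraries, titled biological replicates.

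The mammalian clock is a feedback loop of transcription. The activator BMAL1, encoded by Arntl, pairs with CLOCK or its relative NPAS2, binds E-boxes (CACGTG and close variants) and drives the Per and Cry repressor genes, the nuclear receptor genes Nr1d1 and Nr1d2 (REV-ERB alpha and beta) and Dbp. REV-ERB proteins repress Arntl and Npas2 through ROR response elements, so RNA of the E-box genes and RNA of Arntl peak at different times of day in many tissues, lung included. DBP, TEF and HLF, the PAR bZIP activators, and the opposing repressor NFIL3 act on D-boxes (TTATGTAA) of output genes and of some Per genes. Per1 RNA is in addition induced quickly by cAMP signalling and by glucocorticoids.

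RefSeq start-site windows, each of 250 bases before to 50 bases after an annotated start on GRCm38.p6, were at hand for 9 of the 10 genes in 12 windows. Stretches of 4 are shown because the loop that joins these genes works through such letters, and capitals mark the motif letters that were searched on both strands. The E-box letters CACGTG occurred in 1 window of Per1, at -166 from the start, and in both windows of Tef, at -127 and -138, against 7.15% of all 32851 windows. The D-box letters TTATGTAA occurred at -205 and -158 in Per3 and in 0.938% of all windows. The letters TAGGTCA, a core of ROR response elements, occurred at 31 bases past the second start of Arntl and in 2.61% of windows. The E-box variant CACGTT occurred in Nr1d1 at -28 (4.68% of windows), and the cAMP response element TGACGTCA in Hlf at -9 (1.79%). The windows of Dbp, Nr1d2 and Npas2 held none of these letters. A match describes letters only. Per1 (chr11:69098743-69098828, plus strand), Tef at its second start (chr15:81811236-81811321, plus strand), Per3 (chr4:151044776-151044910, minus strand) and Arntl (chr7:113207530-113207558, plus strand, in an annotated untranslated region) read as follows, 5′ to 3′.
Per1 E-box: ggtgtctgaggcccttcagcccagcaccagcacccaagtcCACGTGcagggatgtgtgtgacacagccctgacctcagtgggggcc
Tef E-box: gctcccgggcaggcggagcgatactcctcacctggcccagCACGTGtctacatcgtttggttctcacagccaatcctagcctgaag
Per3 D-boxes: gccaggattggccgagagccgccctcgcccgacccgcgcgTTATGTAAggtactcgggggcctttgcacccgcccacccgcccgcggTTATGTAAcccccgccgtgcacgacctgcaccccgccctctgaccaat
Arntl ROR element core: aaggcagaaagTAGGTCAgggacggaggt

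The 4 libraries held 17050673 to 18574737 counts and 14961 to 15736 genes with a count. Acta2, whose locus the recorder reads, had 304 and 528 CPM (counts-per-million, TMM-scaled) in the tdTomato+ libraries and 87.6 and 82.9 CPM in the ZsGreen+ ones. All 8 endothelial markers, among them Pecam1, Cdh5 and Erg, were read in every library, with a summed level of 5960 to 7571 CPM. The 10 clock genes together took 0.0218% to 0.0385% of counts.

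Nr1d1 encodes REV-ERB alpha, the repressor that feeds back on Arntl. It stood at 6.27 CPM in replicate 1 and 123 CPM in replicate 2 of tdTomato+ cells, and ZsGreen+ cells had 4.05 and 93.4 CPM. Both replicate 2 libraries thus lay far above both replicate 1 libraries. The ratio was 19.6 in tdTomato+ cells (95% exact interval from counting error alone, 16.3 to 23.9) and 23.1 in ZsGreen+ cells (18 to 30.1). On the deposited per-length scale, transcripts-per-million (TPM), Nr1d1 went from 3.97 to 74 TPM and from 2.08 to 56.2 TPM, and in both replicate 2 libraries it was the highest of the 10 genes. Nr1d1 (NCBI Gene 217166) lies on chromosome 11 at 98767932 to 98775377 and shares its end with the opposing gene Thra, the thyroid hormone receptor alpha. Whether counting used the strand is not stated, and reads of the shared end cannot be told apart. Thra itself stood at 123 and 130 CPM in tdTomato+ and at 168 and 140 CPM in ZsGreen+ replicates 1 and 2, a log2 difference of replicate 1 minus replicate 2 of -0.08 and 0.26, against -4.27 and -4.49 for Nr1d1.

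Nr1d2, REV-ERB beta, had the same order of libraries with smaller ratios. Its levels were 5.56 and 37.9 CPM in tdTomato+ replicates 1 and 2 and 4.05 and 44.8 CPM in the ZsGreen+ ones. The groups of equal replicate number did not overlap, and the ratios were 6.82 (5.53 to 8.49) and 11.1 (8.57 to 14.5). Nr1d2 spans 18204056 to 18239106 on chromosome 14.

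Dbp, the D-box activator and a direct E-box target, had the largest ratios of the 10 genes. It stood at 1.16 CPM against 26.1 CPM in tdTomato+ replicates 1 and 2 and at 0.696 against 19.6 CPM in ZsGreen+ replicates 1 and 2. The ratios of 22.6 (14.6 to 36.8) and 28.2 (15.6 to 57) rest on 21 and 11 counts in the replicate 1 libraries. Dbp (45705100 to 45710203 on chromosome 7) overlaps the end of Sphk2, a sphingosine kinase gene, whose replicate difference was -0.36 and 0.27 on the log2 scale in tdTomato+ and ZsGreen+ cells.

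Tef, the second PAR bZIP activator, was the most highly expressed of the family in replicate 1, at 3.22 TPM in tdTomato+ and 1.94 TPM in ZsGreen+ cells. In CPM it stood at 8.91 and 55.9 in tdTomato+ replicates 1 and 2 and at 6.39 and 54.1 in ZsGreen+ ones, with ratios of 6.27 (5.31 to 7.45) and 8.47 (6.89 to 10.5). The 2 replicate 2 libraries were almost equal for this gene. Tef lies at 81802673 to 81826863 on chromosome 15, and both of its start-site windows hold the E-box letters shown.

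Hlf, the remaining PAR bZIP gene, lay near the limit of detection, with 4 and 33 counts in tdTomato+ replicates 1 and 2 and 3 and 41 counts in ZsGreen+ ones. The ratios, 7.87 (2.8 to 30.6) and 11.8 (3.77 to 59.7), have wide counting intervals. All 3 PAR bZIP genes were thus higher in replicate 2 of both colours. Hlf spans 90336535 to 90390917 on chromosome 11 in RefSeq.

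The Per repressor genes did not move as one. Per2 stood at 1.43 and 5.41 CPM in tdTomato+ replicates 1 and 2 and at 1.52 and 4.05 CPM in ZsGreen+ ones, with ratios of 3.78 (2.44 to 6.06) and 2.67 (1.66 to 4.42). Per3, whose window holds both D-boxes, stood at 3.58 and 10.4 CPM and at 2.53 and 8.71 CPM in the same order, with ratios of 2.91 (2.19 to 3.91) and 3.44 (2.42 to 5). Both were higher in replicate 2, by less than Nr1d1, Nr1d2, Dbp and Tef in each colour.

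Per1 had the opposite order and the highest level of the family. It stood at 174 CPM in replicate 1 and 103 CPM in replicate 2 of tdTomato+ cells, and ZsGreen+ cells had 177 and 76.1 CPM. Replicate 1 was therefore the higher one, 1.7 times (1.6 to 1.8) in tdTomato+ and 2.32 times (2.18 to 2.48) in ZsGreen+ cells. In TPM, Per1 at 26 to 62.5 stood above Per3 at 0.57 to 2.76 and Per2 at 0.35 to 1.48 in every library. Per1 lies at 69095108 to 69109965 on chromosome 11, Per2 at 91415977 to 91459351 on chromosome 1 and Per3 at 150997018 to 151044707 on chromosome 4.

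Arntl and Npas2, of the positive limb, were higher in replicate 1 of both colours. Arntl, the gene of BMAL1, stood at 36.3 and 11.3 CPM in tdTomato+ replicates 1 and 2 and at 37.4 and 15.1 CPM in ZsGreen+ ones. The ratio of replicate 1 to replicate 2 was 3.21 (2.75 to 3.76) and 2.47 (2.14 to 2.86). Npas2, the relative of Clock, stood at 2.59 and 1.26 CPM in tdTomato+ and at 1.01 and 0.219 CPM in ZsGreen+ replicates 1 and 2. Its ratios were 2.05 (1.23 to 3.51) and 4.62 (1.49 to 19), the second resting on 4 counts in ZsGreen+ replicate 2. For Npas2 the replicates overlapped across colours, since tdTomato+ replicate 2 lay above ZsGreen+ replicate 1. Arntl spans 113178471 to 113314126 on chromosome 7 and Npas2 39193702 to 39363240 on chromosome 1.

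**Figure D1:**
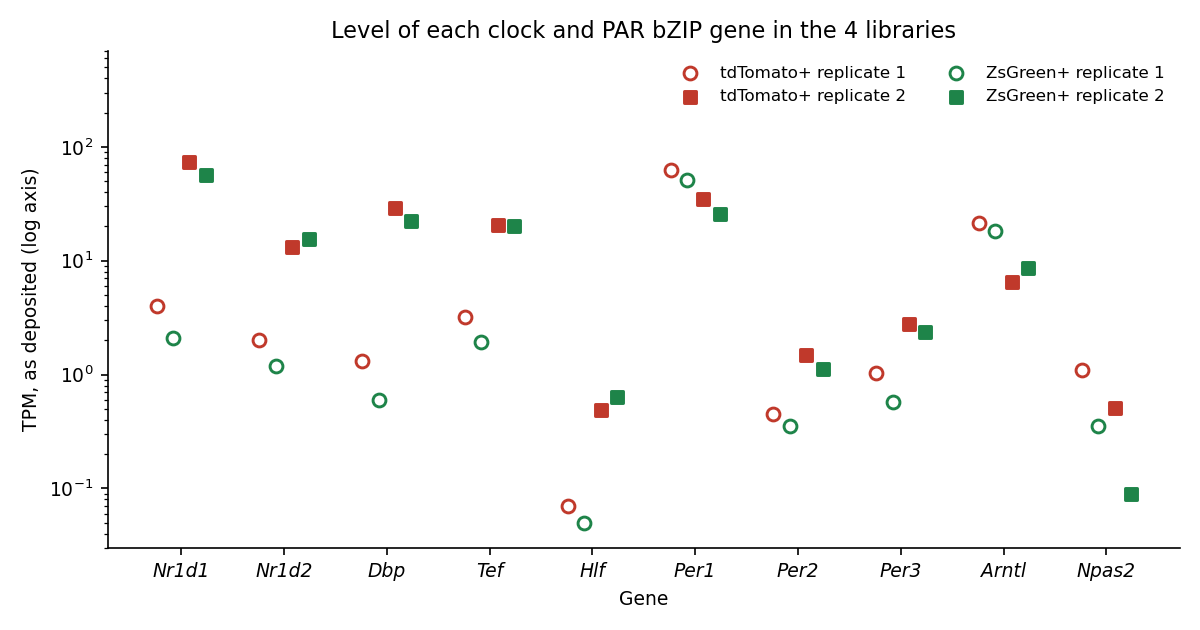
TPM of each gene as deposited, on a log axis, with tdTomato+ libraries in red and ZsGreen+ libraries in green, replicate 1 as open circles and replicate 2 as filled squares. Squares lie above circles for Nr1d1, Nr1d2, Dbp, Tef, Hlf, Per2 and Per3 and below them for Per1 and Arntl, with Nr1d1 spanning 2.08 to 74 TPM; for Npas2 the red square at 0.51 TPM lies above the green circle at 0.35 TPM.

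By size of the replicate difference, averaged over both colours on the log2 CPM scale (prior count 2), the order was Dbp (-4.49), Nr1d1 (-4.38), Nr1d2 (-3.09), Tef (-2.85), Hlf (-2.72), Per3 (-1.63), Per2 (-1.60), Arntl (1.49), Npas2 (1.37) and Per1 (0.99). Negative values mean less RNA in replicate 1. Neighbours in this order differed in size by less than the gap between the colours of either gene, except Nr1d1 from Nr1d2 and Hlf from Per3. The median size was 2.17 over the 10 genes and 0.22 over all genes tested. At least a 2-fold difference in both colours was met by 7 genes with less RNA in replicate 1, against 1.55% of all genes tested, and by Arntl with more, against 1.72%. These shares are printed for scale only, because the genes were picked on this contrast. On log2(TPM + 1), where the pseudocount weighs on low genes, 5 genes in place of 8 met the 2-fold mark and the median size was 1.14.

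**Figure D2:**
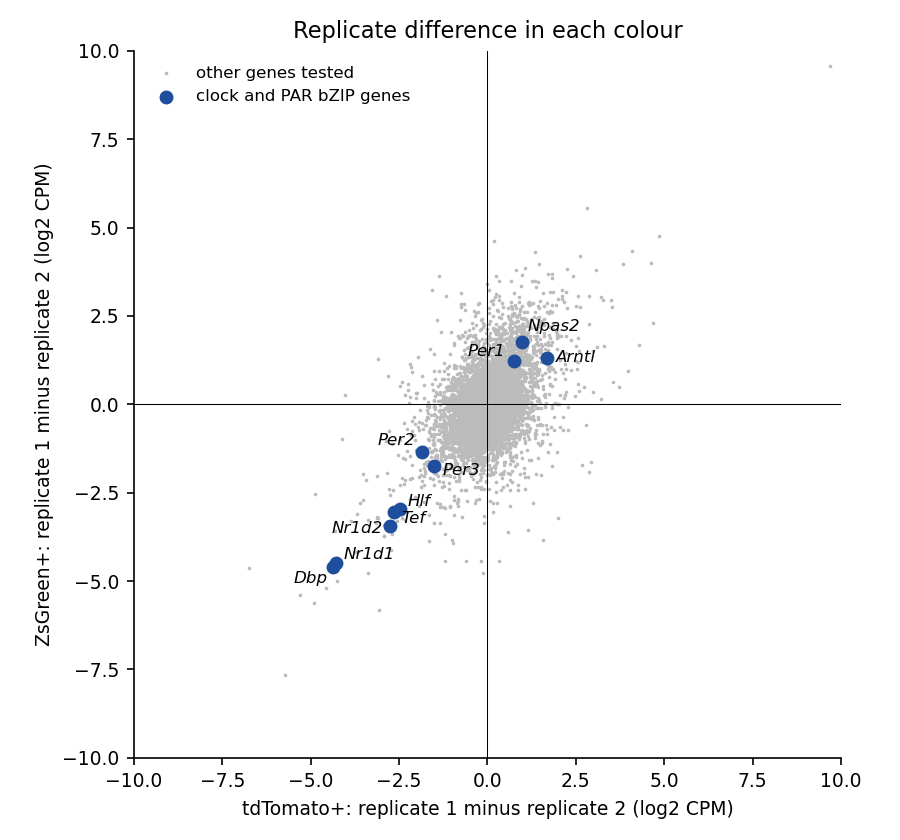
Each point is a gene tested, placed by its log2 CPM difference of replicate 1 minus replicate 2 in tdTomato+ cells (horizontal) and ZsGreen+ cells (vertical), with the 10 clock and PAR bZIP genes in blue. Dbp and Nr1d1 lie near -4.4 on both axes, in the lower left with 5 other members, while Per1, Arntl and Npas2 lie in the upper right.

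Other RNA also differed between the replicate numbers. Macrophage markers (9 of 9 read in every library, none at 0) summed to 5459 and 2562 CPM in tdTomato+ replicates 1 and 2 and to 3014 and 630 CPM in ZsGreen+ ones, and 7 of the 9 were higher in replicate 1 of both colours. Most of each sum was 1 gene, Lyz2, at 3953 and 1969 CPM in tdTomato+ and 2269 and 469 CPM in ZsGreen+ replicates 1 and 2. Marco, a scavenger receptor of alveolar macrophages, ran opposite, at 11.3 and 55.2 CPM in tdTomato+ and 5 and 12.7 CPM in ZsGreen+ replicates 1 and 2. Lymphocyte markers (5 of the 7 listed are in the table, none at 0) summed to 13.4 and 4.99 CPM and to 13.5 and 3.07 CPM in the same order. Neutrophil and monocyte markers (7 of 7 read, none at 0) summed to 43.7 and 86.1 CPM and to 36.5 and 88.1 CPM. A large part of the replicate 2 sums was 1 gene, Ly6c2, at 4.68 and 41.8 CPM and at 8.23 and 75.65 CPM in the same order. Of the 6 tested, 2 were higher and only Ly6c2 was lower in replicate 1 of both colours, so the list had no common direction. Fibroblast markers (7 of 7 read, none at 0) summed to 232 and 430 CPM and to 94.2 and 117 CPM. Of these, 4 were lower in replicate 1 of both colours, while Pi16, Dcn and Pdgfra had opposite signs in the colours. The part of these cells in the clock differences was not tested, and in bulk RNA fewer cells of a type and less RNA per cell cannot be told apart.

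Against colour, none of the 10 genes was called by edgeR's quasi-likelihood test adjusted over all genes (0 of 10 at an adjusted p under 0.05 and 0 at an unadjusted p under 0.05), where 0.304% of the 13177 genes were called and 1155 had an unadjusted p under 0.05. DESeq2 called 0 of the 10 as well. The spread in this fit holds the replicate difference that chose the genes, so its standard errors (SE) are wide. The choice thus made calls among the 10 unlikely, and the numbers over all genes are printed for scale only. For Nr1d1 the means were 64.8 ± 82.7 CPM in tdTomato+ and 48.7 ± 63.2 CPM in ZsGreen+ cells (SD, n = 2 each), and the log2 fold change of tdTomato+ over ZsGreen+ was 0.41 (SE 1.44, edgeR adjusted p = 0.975). For Dbp it was 0.42 (SE 1.47, edgeR adjusted p = 0.975), for Tef 0.10 (SE 1.02) and for Nr1d2 -0.17 (SE 1.10). Per1 had the narrowest error, at 138.5 ± 50.6 CPM against 126.5 ± 71.3 CPM and a log2 fold change of 0.13 (SE 0.41, edgeR adjusted p = 0.973). Arntl stood at -0.14 (SE 0.60), Per2 at 0.29 (SE 0.76), Per3 at 0.31 (SE 0.70) and Hlf at -0.33 (SE 1.23). Fold changes carried an SE of 0.41 to 1.47 on the log2 scale, so these values do not show equal levels. Leaving out 1 library leaves a colour with 1 replicate number, so the replicate difference that chose the genes enters the colour estimate. The direction then turned for 9 of the 10 genes, Npas2 excepted. Nr1d1 ranged from -2.95 without tdTomato+ replicate 2 to 4.00 without ZsGreen+ replicate 2. Because of the way the genes were chosen, these turns say nothing about colour.

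Npas2 had the largest estimate between colours. Its mean was 1.92 ± 0.938 CPM in tdTomato+ and 0.616 ± 0.561 CPM in ZsGreen+ cells (SD, n = 2 each), a log2 fold change of 1.65 (SE 0.87, edgeR adjusted p = 0.707). It was not called, and the estimate moved from 0.92 without ZsGreen+ replicate 2 to 3.10 without ZsGreen+ replicate 1. In each case the remaining ZsGreen+ library carries its own replicate's level. Summed macrophage markers, mostly Lyz2, stood at 5459 and 2562 CPM in tdTomato+ and at 3014 and 630 CPM in ZsGreen+ replicates 1 and 2. Their part in the Npas2 levels was not tested.

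Within one replicate number the colours can be set side by side, 1 library against 1. What equal numbers share is not stated, and the replicate difference was not the same in both colours. It is therefore not fully taken out. In the replicate 1 libraries the log2 difference of tdTomato+ minus ZsGreen+ was 0.62 for Nr1d1, 0.45 for Nr1d2, 0.65 for Dbp, 0.47 for Tef and 0.48 for Per3. In the replicate 2 libraries the same genes stood at 0.40, -0.24, 0.41, 0.05 and 0.25. Nr1d1, Dbp, Tef, Per3 and Npas2 were thus higher in tdTomato+ cells in both replicate numbers, 5 of 10 genes against 29.8% of all genes tested, and Arntl was lower in both (-0.04 and -0.42), 1 of 10 against 27.1%. The sign changed for Nr1d2, Hlf (0.14 and -0.35), Per1 (-0.02 and 0.43) and Per2 (-0.08 and 0.41). With the exception of Npas2, each colour difference was smaller in size than the same gene's replicate difference in either colour. The genes were picked for their replicate difference, so the choice itself favoured this order and it is no result about colour. Replicate differences were larger in ZsGreen+ than in tdTomato+ cells for 8 of the 10 genes, Per2 and Arntl being the exceptions. With 1 library in each cell this was not tested. The share over all genes is not given, so this is not shown to be particular to the 10.

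**Figure D3:**
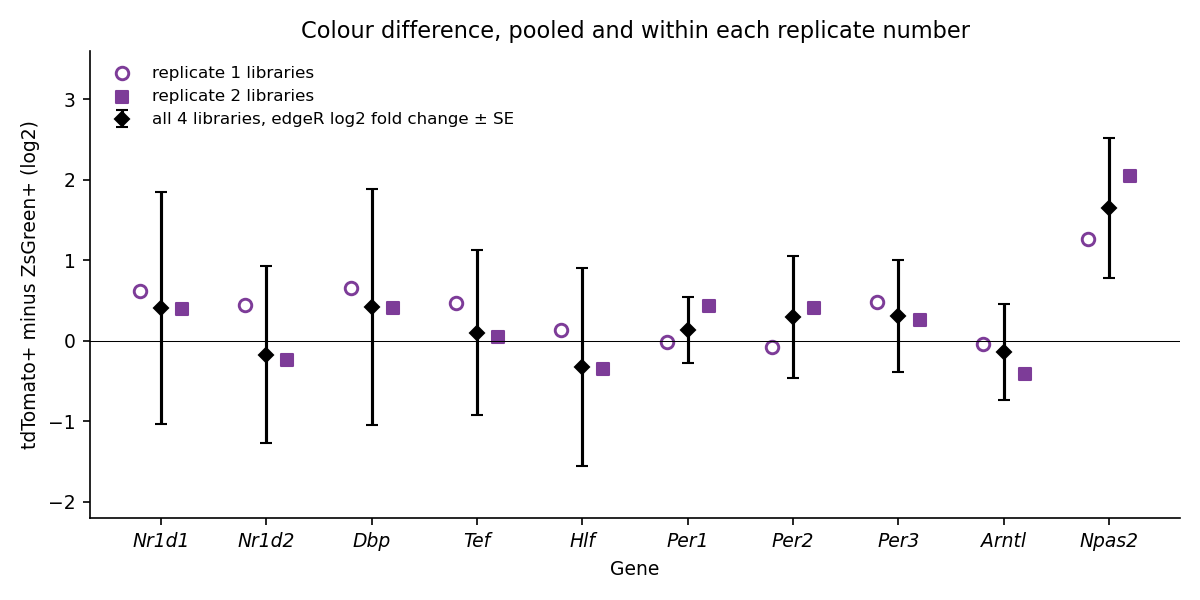
Difference of tdTomato+ minus ZsGreen+ on the log2 scale for each gene, as the fitted log2 fold change over 4 libraries with its standard error (black diamonds) and within replicate 1 (open circles) or replicate 2 (filled squares). Error bars of all genes but Npas2 cross 0, and the within-number values of Nr1d1 (0.62 and 0.40) sit far inside its bar.

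Fixed lists gave 87 other genes, of the wider clock pathway and of responses to stimuli, of which 86 are in the table and 81 were tested. The lists include 13 glucocorticoid-induced, 18 immediate early and 10 heat shock genes. Counts over the 81 are therefore not counts of clock genes alone. None of the 81 was called between colours by edgeR adjusted over all genes (6 had an unadjusted p under 0.05, beside 1155 of all 13177), and the median log2 fold change was -0.02, against -0.01 over all genes tested. DESeq2 called 1, the iron-binding lipocalin Lcn2 of the glucocorticoid-induced list, and its edgeR value was -1.48 (SE 0.21, adjusted p = 0.0606). By replicate number, 1 of the 81 had at least a 2-fold difference in both colours, with more RNA in replicate 1. Over all genes tested 1.72% had this, and 1.55% had it with less RNA there.

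That gene was Arntl2, a paralogue of Arntl, at 1.98 and 0.63 CPM in tdTomato+ and 0.886 and 0.164 CPM in ZsGreen+ replicates 1 and 2. It was named after its values were seen, since its mean lies under 1 CPM. Its values rest on few counts, 36 and 11.8 in tdTomato+ and 14 and 3 in ZsGreen+ replicates 1 and 2. Clock, the usual partner of BMAL1, had no common direction, at 21.6 and 15.8 CPM in tdTomato+ and 15.9 and 18.4 CPM in ZsGreen+ replicates 1 and 2. The replicate difference of the positive limb was therefore that of Arntl, Npas2 and Arntl2, with Clock apart.

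Among the other repressors Cry2, a cryptochrome, followed Per2 and Per3. It stood at 11.9 and 24.2 CPM in tdTomato+ and at 11.6 and 18.7 CPM in ZsGreen+ replicates 1 and 2. Cry1 lay between 12.5 and 14.2 CPM in all 4 libraries. Bhlhe40, the repressor DEC1, differed by -0.13 and -0.28 on the log2 scale in tdTomato+ and ZsGreen+ cells, and its relative Bhlhe41 by 0.38 and 1.29. Ciart, an E-box target and repressor of BMAL1, had opposite signs, at 8.69 and 5.93 CPM in tdTomato+ and 3.8 and 9.42 CPM in ZsGreen+ cells.

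Nfil3, the repressor that opposes the PAR bZIP activators at D-boxes, was the one factor of that list with more RNA in replicate 1. Its levels were 48.2 and 30.4 CPM in tdTomato+ and 41.4 and 24 CPM in ZsGreen+ replicates 1 and 2, so both replicate 1 libraries lay above both replicate 2 libraries. Rora, an activator at ROR elements, had opposite signs in the colours (0.16 and -1.07).

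Kinases, ligases and partners of clock proteins had a median size of 0.13 over 16 genes, with 5 higher and 5 lower in replicate 1 of both colours, beside 3817 and 3677 of all 13177 genes. Csnk1e, a casein kinase that phosphorylates PER proteins, was lower in replicate 1, at 64.7 and 104 CPM in tdTomato+ and 75.3 and 107.5 CPM in ZsGreen+ replicates 1 and 2. Sik1, a salt-inducible kinase, went the other way, with 236.7 and 163.5 CPM and 223.5 and 116 CPM. Usp2, a deubiquitinase of clock proteins, stood at 6.49 and 4.41 CPM in tdTomato+ and 2.78 and 2.47 CPM in ZsGreen+ replicates 1 and 2.

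Of 21 tested outputs that cycle in many tissues, 14 had one direction in both colours, beside 7494 of all 13177 genes (56.9%). Wee1, a cell cycle kinase with E-boxes at its gene, was lower in replicate 1, at 18.1 and 35.1 CPM in tdTomato+ and 9.49 and 39.9 CPM in ZsGreen+ cells, and Klf10, a zinc finger repressor, differed by -0.50 and -0.85 on the log2 scale. Cdkn1a, the cell cycle inhibitor p21, and Pparg, a nuclear receptor of lipid metabolism, were higher in replicate 1 by 0.67 and 0.99 and by 0.68 and 1.04.

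Genes that respond quickly to stimuli were given because Per1 is one of them. Of 18 immediate early genes 15 were higher in replicate 1 in both colours, where 29% of all genes tested were. Their median replicate difference was 0.41 in tdTomato+ and 0.86 in ZsGreen+ cells, beside 0.76 and 1.22 for Per1. Btg2, an antiproliferative factor, stood at 1103 and 589.5 CPM in tdTomato+ and 1453 and 615 CPM in ZsGreen+ replicates 1 and 2. Zfp36, an mRNA decay factor, differed by 0.70 and 1.06, Jun, an AP-1 subunit, by 0.61 and 0.76 and Egr2, a zinc finger activator, by 0.60 and 1.04. Arntl and Npas2, like Per1, had the same sign as these 15 genes, and Nr1d1, Nr1d2, Dbp, Tef, Hlf, Per2 and Per3 had the opposite sign. What set the direction of Per1 was not tested.

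Of 13 glucocorticoid-induced genes 7 were higher in replicate 1 in both colours, where 29% of all genes tested were. This list shares Dusp1 with the immediate early genes and Tsc22d3, Klf9, Cdkn1a and Pdk4 with the outputs. Errfi1, an inhibitor of EGF receptor signalling, differed by 0.64 and 0.76, Tsc22d3, the leucine zipper GILZ, by 0.49 and 0.60 and Klf9, a zinc finger factor, by 0.54 and 0.43. Of 10 heat shock genes 6 were higher in replicate 1 in both colours, beside the same 29%, among them the inducible chaperone Hspa1a (0.65 and 0.70) and Hspa8 (0.44 and 0.71).

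**Figure D4:**
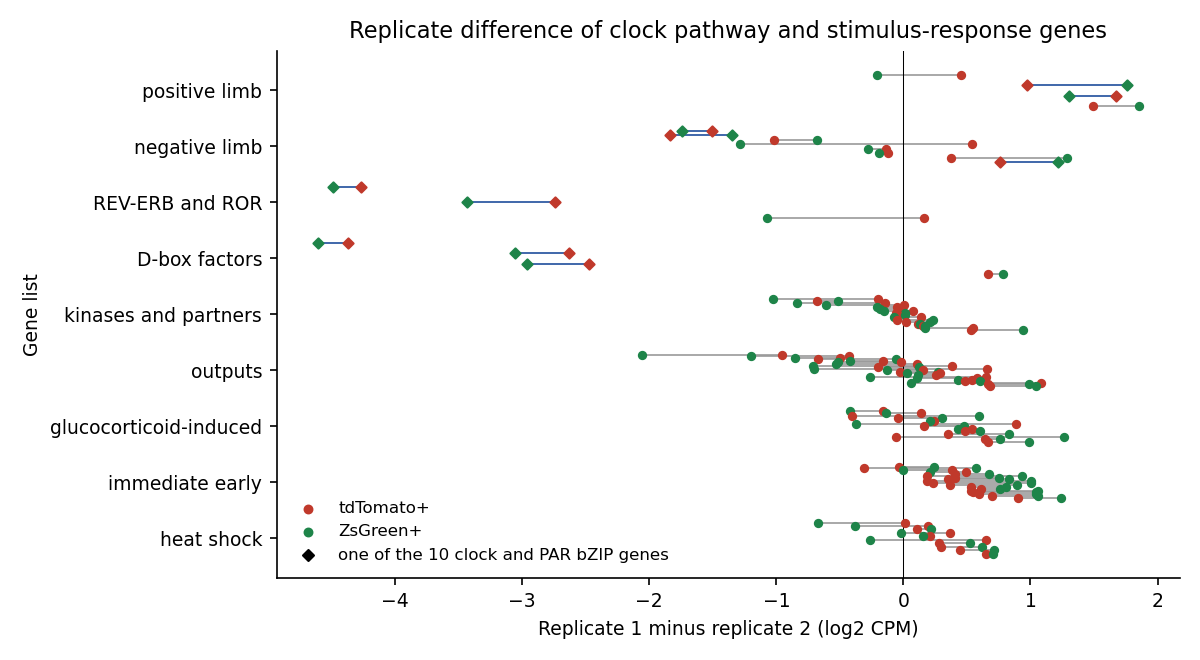
Log2 CPM difference of replicate 1 minus replicate 2 for each tested gene of the fixed lists, red for tdTomato+ and green for ZsGreen+, joined by a line per gene, with diamonds for the 10 clock and PAR bZIP genes. The REV-ERB and PAR bZIP diamonds lie between -4.61 and -2.47, whereas Per1, in the negative limb row, lies at 0.76 and 1.22. The medians of the immediate early row are 0.41 and 0.86.

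Other genes with one direction in both colours were ranked by the smaller of their replicate differences, among named genes at 5 CPM or more, over the same 4 libraries. The largest are given here, not those nearest in size to the 10. With less RNA in replicate 1 these were Nxpe4, Serpina1b, Eif3j2, Serpina3i and Mcub, and with more RNA Ifi204, Tmem254c, Tnfrsf9, Abcc3 and Arsj. Mcub, a subunit of the mitochondrial calcium uniporter, stood at 1.6 and 22.3 CPM in tdTomato+ and 1.14 and 22.5 CPM in ZsGreen+ replicates 1 and 2. Serpina3i, a serine protease inhibitor, stood at 3.25 and 64 CPM and at 2.85 and 94.8 CPM. Ifi204, an interferon-inducible gene, stood at 32 and 1.79 CPM and at 30.7 and 1.42 CPM. None of these 10 genes is in the clock lists. Among the 3677 genes with less RNA in replicate 1 of both colours Dbp ranked at position 7 and Nr1d1 at 8, followed by Nr1d2 at 28, Tef at 32, Hlf at 36, Per3 at 82 and Per2 at 105. Among the 3817 genes with more RNA there, Arntl ranked at 119, Npas2 at 246 and Per1 at 414. These ranks are printed for scale only, because the genes were picked on this contrast. The rank of Hlf rests on 4 and 3 counts in replicate 1 of tdTomato+ and ZsGreen+ cells.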

How the data were processed

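Bulk RNA of sorted lung endothelial cells was read in 4 libraries, 2 tdTomato+ and 2 ZsGreen+, made by whole-transcriptome amplification of small RNA inputs per the labels' protocols. The authors deposited estimated counts per gene, TPM, FPKM and a normalized count signal. RSEM 1.3.1, DESeq2 1.4.5 and the builds mm10 and GRCm38 are named per the submitters' processing notes, without their roles; the sources used here do not give aligner, strand setting or annotation. FPKM and the normalized signal deposited by the authors entered no test.

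Estimated counts were rounded to whole numbers for the test. Genes were filtered with filterByExpr (minimum count 10), scaled by TMM and tested between colours with edgeR 4.0.16 (quasi-likelihood, all 4 libraries, no covariate), with Benjamini-Hochberg adjustment over 13177 genes at 0.05; a script for this was tested on simulated data. An exact permutation test of 2 against 2 libraries cannot go below a two-sided p of 0.333, so none was used. Replicate differences are log2 CPM with a prior count of 2. Alternatives used DESeq2 1.42.0, limma 3.58.1, other scalings, filters and pseudocounts.

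The members and gene lists were chosen with earlier results of these data known. Named genes are the 10 members and up to 4 genes per list with a mean of at least 1 CPM and the largest smaller-of-both-colours replicate difference. Added to these are the 5 other genes per direction with the largest such difference and a mean of at least 5 CPM. Predicted, RIKEN, mitochondrial, ribosomal protein and antigen receptor names were left out of these 5. Clock, Arntl2, Ciart, Rora, Lcn2, Thra, Sphk2, Lyz2, Marco, Ly6c2, Pi16, Dcn and Pdgfra were named after their values were seen. Gene positions and start-site windows are RefSeq's on GRCm38.p6.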

Additional observations from a re-analysis of the deposited data

How the results depend on the processing

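Of the members tested in each of 14 settings, 0 were called between colours. Hlf and Npas2 were not tested on the TPM scales, and Dbp, Hlf and Npas2 not with at least 1 CPM in all libraries. The genes called among all tested moved from 40 to 330 with DESeq2, 128 with no filter, 61 with at least 1 CPM in all libraries, 22 on log2(TPM + 0.1) and 4 to 304 when 1 library was left out (17 and 4 when it was tdTomato+ replicate 1 and 2, 304 and 26 when it was ZsGreen+ replicate 1 and 2). Equal replicate numbers share only a number in the labels. Replicate differences in the colours correlated at 0.455 over 13177 genes (0.447 without the members and the fixed lists), and 56.9% of genes had one sign. With a replicate block 934 genes were called, 0 of them members. The smallest adjusted p among the members was then 0.157 (edgeR, Npas2, log2 fold change 1.80), and choosing genes for a shared shift makes the residual of that fit small. Pathway genes called were 1 with DESeq2, with no filter, with at least 1 CPM in all libraries and on log2(TPM + 1), in each case Lcn2, 4 with the replicate block (Lcn2, Mt1, Fkbp5 and Egr2) and 0 to 3 with 1 library left out. The sign of Nr1d2 (-0.17) turned to 0.037 with voom, 0.053 with the replicate block, 0.12 on log2(TPM + 1) and 0.23 on log2(TPM + 0.1), where the median of all genes moved to 0.12 and 0.13. With 1 library left out, the colour log2 fold change ranged from -2.95 to 4.00 for Nr1d1, -2.13 to 2.42 for Nr1d2, -3.12 to 4.28 for Dbp, -1.75 to 2.34 for Tef, -2.43 to 2.32 for Hlf, -0.36 to 0.87 for Per1, -0.94 to 1.17 for Per2, -0.64 to 1.46 for Per3, -1.22 to 0.66 for Arntl and 0.92 to 3.10 for Npas2. The lone library of an arm is then assumed to vary like the other group, and the remaining one carries its replicate's level. The median size of the replicate difference was 2.17, 1.14 on log2(TPM + 1) and 1.83 on log2(TPM + 0.1). Members past the fold mark in both colours were 8 at 2-fold, 5 on log2(TPM + 1), 5 at 4-fold, 10 at 1.5-fold and 9 with total counts only. No replicate difference changed sign under a setting run. Leaving out a library removes 1 colour from the replicate difference, so this was not run. Hlf, Npas2 and Per2 are limited by depth, and other causes of these changes were not tested.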
